A study of Mus musculus with 2 samples.

Results

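Heat shock chaperones are proteins that hold other proteins in a folded state or refold them. The 10 genes described here encode the main cytosolic HSP70 and HSP90 proteins, some of their helpers and the mitochondrial pair HSP60 and HSP10, and were chosen by symbol from the 31053 genes in the deposited tables: *Hspa1a*, *Hspa1b*, *Dnajb1*, *Hsph1* and *Hsp90aa1*, grouped as inducible, and *Hspa8*, *Hsp90ab1*, *Dnaja1*, *Hspd1* and *Hspe1*, grouped as constitutive. All 10 were detected in both libraries, and all 10 passed the minimum of 100 unique molecular identifiers (UMIs, each a counted mRNA molecule) summed over both libraries that 8708 genes passed. The cells were adipose tissue macrophages (ATMs) of the epididymal fat of male C57/BL6 mice, kept on control diet (CD) or given a high fat diet overnight (HFD). Each diet was 1 droplet-based scRNA-seq library from 3 pooled mice, so the mice of a library cannot be told apart. Every interval below covers counting error only or, for differences in shares of cells, the sampling of cells only. The labels give no age or genotype beyond the strain and describe the sort as CD45+Lin-Ly6Clow/-F4/80+. The methods add CD11b, name the substrain C57BL/6JOlaHsd and give the age of the mice as a range of weeks. In the methods the control diet holds corn starch and the high fat diet sucrose, so the diets differ in carbohydrate as well as in fat. The comparison asks what a single night on the high fat diet does to the transcripts of these macrophages.

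HSP70 proteins bind exposed stretches of unfolded proteins in a cycle that spends ATP, J-domain proteins (DNAJ) bring clients and start that cycle, and nucleotide exchange factors such as HSPH1 end it. HSP90 proteins take over part-folded clients, among them steroid receptors and kinases. When unfolded proteins build up, the transcription factor HSF1 is released from chaperones, forms trimers and binds heat shock elements, which are inverted repeats of the unit GAA, and it then raises the inducible genes far above a low resting level while the constitutive genes are on in nearly every cell. The same inducible genes are also known to respond to tissue digestion and cell sorting, which all cells here went through.

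Cells with 200 to 3500 genes and at most 10% mitochondrial UMIs were kept, 2364 of 4459 barcodes in CD and 2021 of 3163 in HFD, with 12284010 and 8086475 UMIs. CD cells were deeper, with a median of 4490.5 UMIs against 2792 in HFD, and 14 barcode sequences occurred in both libraries, 7 of them among the kept cells. All 8 macrophage markers examined (*Adgre1*, *Cd68*, *Csf1r*, *Itgam*, *Fcgr1*, *Mertk*, *Lyz2*, *C1qa*) were detected in both libraries, with a UMI of at least 1 of them in 99.9% of kept cells in each. Markers of other cells were unequal: the summed level of 5 stromal genes was 73.4 CPM (UMIs per 1000000 UMIs) in CD and 4.33 in HFD, that of 5 cycling genes was 203 and 67.0, and hemoglobin genes summed to 855 and 939 CPM, with a UMI in 26.4% of CD and 7.82% of HFD cells. Peritoneal macrophage markers summed to 23.8 and 53.1 CPM, endothelial to 262 and 222, dendritic to 217 and 222 and neutrophil to 15.5 and 7.79 CPM. Adipocyte markers summed to 13.4 and 8.41, T or NK cell to 2.28 and 0.247 and mesothelial to 0.977 and 0.124 CPM. The part of these markers in the values below was not tested beyond an alternative that left out cells with a UMI of another cell type. That alternative kept cells with a dendritic or cycling UMI, and a dendritic UMI was in 41.7% of CD and 29.6% of HFD cells. Cells were then read in 5 gates that overlap: *Lyve1*+ (at least 1 UMI, 1172 CD and 415 HFD cells), *Folr2*+*Lyve1*- (872 and 581), *Ccr2*+ (1326 and 1131), *Lyz1* of at least 10 UMIs (555 and 672) and *Plac8*+ (42 and 73). *Lyve1* marks resident ATMs, whereas *Ccr2*, *Lyz1* and *Plac8* are high in monocytes and cells derived from them. *Lyve1*+ cells made up 49.6% of kept CD cells and 20.5% of kept HFD cells, and 47 CD and 276 HFD cells were in no gate. The gates are fixed UMI cutoffs on libraries of unequal depth, and the part of depth in these shares was not tested.

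To show what these genes have in common in their regulatory sequence, the 250 bases before the start site are printed for both HSP70 twins, for *Hsph1* and *Hspe1*, whose windows hold heat shock elements, and for *Dnajb1*, whose window holds none of the searched heat shock forms. Sequences are from RefSeq on GRCm38.p6, run 5′ to 3′ on the gene's strand, and capitals mark each match to GAANNTTC or TTCNNGAA, the pair of inverted units that reads the same on both strands.
Hspa1a, chr17:34972157-34972406, minus strand: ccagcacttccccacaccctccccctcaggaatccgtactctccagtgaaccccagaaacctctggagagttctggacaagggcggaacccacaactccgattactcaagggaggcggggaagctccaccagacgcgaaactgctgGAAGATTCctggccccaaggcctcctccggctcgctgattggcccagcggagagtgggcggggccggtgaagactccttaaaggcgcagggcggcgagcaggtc
Hspa1b, chr17:34959239-34959488, minus strand: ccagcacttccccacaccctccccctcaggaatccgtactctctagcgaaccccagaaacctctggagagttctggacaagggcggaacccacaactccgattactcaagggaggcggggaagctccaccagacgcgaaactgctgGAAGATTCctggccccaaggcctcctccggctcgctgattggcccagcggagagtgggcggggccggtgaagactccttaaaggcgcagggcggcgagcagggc
Hsph1, chr5:149636337-149636586, minus strand: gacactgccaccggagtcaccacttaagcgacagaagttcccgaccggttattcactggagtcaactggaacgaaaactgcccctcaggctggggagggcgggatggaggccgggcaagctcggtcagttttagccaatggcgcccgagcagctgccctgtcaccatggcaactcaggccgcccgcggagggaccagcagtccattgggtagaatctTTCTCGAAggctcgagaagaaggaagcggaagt
Hspe1, chr1:55087898-55088147, plus strand: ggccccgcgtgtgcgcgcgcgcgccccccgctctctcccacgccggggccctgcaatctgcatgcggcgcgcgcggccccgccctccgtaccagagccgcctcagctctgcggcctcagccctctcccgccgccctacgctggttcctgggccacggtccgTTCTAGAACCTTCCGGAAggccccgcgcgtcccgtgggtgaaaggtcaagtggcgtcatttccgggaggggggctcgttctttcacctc
Dnajb1, chr8:83607925-83608174, plus strand: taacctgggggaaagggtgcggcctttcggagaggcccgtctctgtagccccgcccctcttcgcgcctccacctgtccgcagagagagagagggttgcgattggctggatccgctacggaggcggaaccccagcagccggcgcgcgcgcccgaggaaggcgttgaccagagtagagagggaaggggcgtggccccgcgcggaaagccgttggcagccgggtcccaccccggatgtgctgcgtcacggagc
Windows were found for 7 of the 10 members, with none for *Hspa8*, *Hsp90aa1* and *Hsp90ab1*. Read over 250 bases before and 50 after each start, 7 of the 12 windows of these members, from 6 of the 7, held at least 1 match, whereas 15.1% of all 32851 mouse windows did. These windows are not independent, since *Hspa1a* and *Hspa1b* are near-identical, windows of 1 gene can overlap, and *Hspd1* and *Hspe1* share a run. In *Hspa1a* and *Hspa1b* the match began at position -104, counted back from the start site, and in *Hsph1* at -33 with a second group just after the start. A run of 3 units (a pair above extended by NNGAA or NNTTC, so that it contains both pairs, each form being the reverse complement of the other) was present in 0.603% of all windows and in those of *Hsph1*, *Hspd1* and *Hspe1*. In *Hspe1* the matches at -89, -84 and -79 overlap into 1 run of units, and the same run lies in a window of *Hspd1*, since these neighbours on chromosome 1 are read in opposite directions and overlap at their 5′ ends. The windows of *Hspa1a* and *Hspa1b* differed at 4 of 300 positions, C44T, T47C, T249G and C276T, where the *Hspa1a* base stands first and positions count from 1 at the 5′ end of the run. These matches are letters in a window and were not tested for binding by any factor.

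*Hspa1a* and *Hspa1b*, the twin genes of stress-inducible HSP70, had the highest ratios of HFD over CD among the 10 members in all kept cells. *Hspa1a* (chr17:34969190-34972156, minus strand, GRCm38) stood at 361 CPM in CD, from 4430 UMIs, and at 591 CPM in HFD, from 4778 UMIs. Its log2 ratio of HFD over CD was 0.71 (95% interval 0.65 to 0.77), and 97.7% of the 8708 genes had a lower ratio. *Hspa1b* (chr17:34956436-34959238, minus strand) was far lower, at 45.8 CPM in CD and 128 CPM in HFD, and its log2 ratio was 1.48 (1.33 to 1.63). It was the only member at least 2-fold higher in HFD over all kept cells, where 1.06% of all genes were, and no member was at least 2-fold lower, where 2.48% of all genes were.

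The twins are near-identical in their coding sequence, so the division of any reads from that part is uncertain. Their annotated coding sequences agree at 1918 of 1926 aligned bases, while their 3′ untranslated regions agree at 68.4% of aligned bases, and none of the 311 windows of 90 bases in the last 400 bases of *Hspa1a* occurs in *Hspa1b*. Summed, they gave 406 CPM in CD and 719 CPM in HFD, a log2 ratio of 0.82 (0.77 to 0.88). The gene *Gm20481* overlaps *Hspa1a* on the other strand and held 0 UMIs in CD and 1 in HFD.

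**Figure D1:**
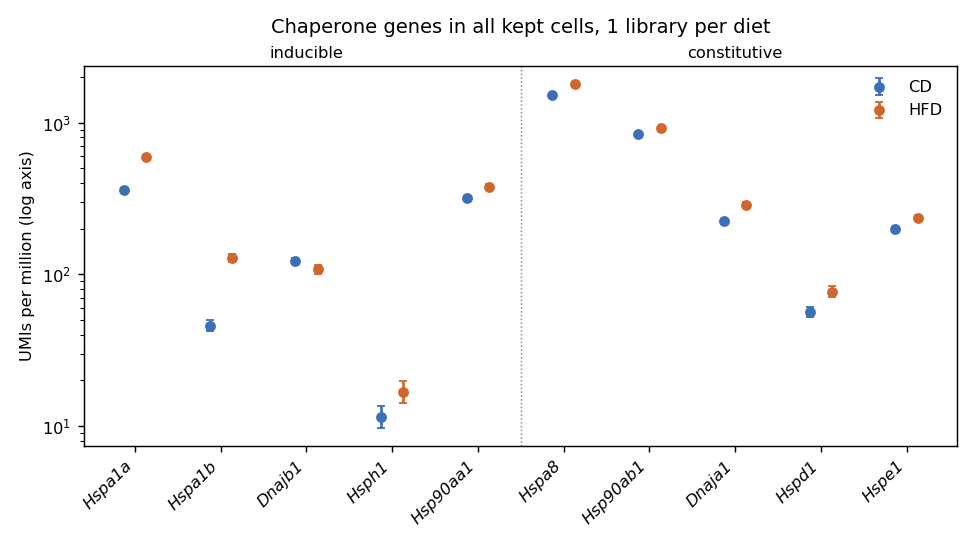
Level of each chaperone gene in all kept cells, in UMIs per 1000000 on a log axis, for the CD (blue) and HFD (orange) library, with exact Poisson 95% intervals. *Hspa1b* shows the widest gap (45.8 against 128), *Dnajb1* is the only gene with the HFD point below the CD point, and *Hspa8* is the highest in both.

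The other inducible genes had lower ratios over all kept cells, although the interval of *Hsph1* holds the ratio of *Hspa1a*. *Dnajb1*, the J-domain partner of inducible HSP70 (chr8:83608193-83612653, plus strand), was at 123 CPM in CD and 108 CPM in HFD, a log2 ratio of -0.18 (-0.30 to -0.06), the only member with a ratio below 0. *Hsph1*, the exchange factor HSP110 (chr5:149614287-149636376, minus strand), was the rarest member, at 11.5 and 16.8 CPM from 141 and 136 UMIs, with a ratio of 0.55 and a wide interval of 0.20 to 0.90. *Hsp90aa1*, the inducible cytosolic HSP90 (chr12:110690605-110702728, minus strand), was at 320 and 379 CPM, a ratio of 0.25 (0.18 to 0.31).

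The 5 constitutive genes were all higher in HFD over all kept cells, with log2 ratios from 0.13 to 0.45. *Hspa8*, the constant HSP70 also called HSC70 (chr9:40800984-40810087, plus strand), was the most abundant member, at 1527 CPM in CD and 1798 CPM in HFD, a log2 ratio of 0.24 (0.20 to 0.27). *Hsp90ab1*, the constant HSP90 (chr17:45567775-45573271, minus strand), was at 837 and 916 CPM, a ratio of 0.13 (0.09 to 0.17). *Dnaja1*, a farnesylated J-domain protein that works with HSC70 (chr4:40722150-40737149, plus strand), was at 223 and 288 CPM, a ratio of 0.37 (0.29 to 0.45). The mitochondrial chamber genes were close to these: *Hspd1*, which encodes HSP60 (chr1:55077835-55088243, minus strand), was at 56.5 and 77.2 CPM (0.45, 0.29 to 0.61) and *Hspe1*, which encodes its lid HSP10 (chr1:55088132-55091307, plus strand), at 198 and 236 CPM (0.26, 0.17 to 0.34). *Dnaja1* overlaps *Smu1*, so reads from the shared stretch are uncertain. *Hspd1* and *Hspe1* lie on opposite strands and overlap only at their 5′ ends, away from the 3′ ends where molecules are counted. Levels are molecules counted at the 3′ end, which do not scale with transcript length. In order, *Hspa8* and *Hsp90ab1* were first and second in both libraries, and *Hsph1* was last, with Poisson intervals of neighbours in the order that did not overlap in either library. *Hspa1b* was ninth in CD and seventh in HFD, where it passed *Hspd1* and *Dnajb1*, and the 10 genes together took 0.370% of all UMIs in CD and 0.454% in HFD.

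The inducible sum was 860 CPM in CD and 1223 CPM in HFD, a log2 ratio of 0.51 (0.47 to 0.55), and the constitutive sum was 2842 and 3316 CPM, a ratio of 0.22 (0.20 to 0.25). The difference between the class ratios was 0.28 (0.24 to 0.33), and the inducible share of the members' UMIs was 23.2% in CD and 26.9% in HFD. This separation rested on the HSP70 twins: without *Hspa1a* and *Hspa1b*, an alternative chosen after seeing the data, the difference was -0.07. The median ratio was 0.55 over the inducible and 0.26 over the constitutive genes, against -0.01 over all 8708 genes.

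*Hspa1a* was higher in HFD in every gate. In *Lyve1*+ cells *Hspa1a* was at 466 CPM in CD and 956 CPM in HFD, a log2 ratio of 1.04 (0.94 to 1.13). In *Folr2*+*Lyve1*- cells it was at 306 and 684 CPM, a ratio of 1.16 (1.06 to 1.26). It was at 287 and 486 CPM in *Ccr2*+ cells (0.76, 0.68 to 0.84). The highest level among the gates was that of *Lyve1*+ cells in both libraries. At *Lyz1* of at least 10 UMIs *Hspa1a* was at 194 and 352 CPM (0.86, 0.74 to 0.98). In *Plac8*+ cells, with 40 UMIs in CD and 178 in HFD, it was at 146 and 450 CPM (1.62, 1.12 to 2.15). The interval of *Plac8*+ cells overlaps that of *Folr2*+*Lyve1*- cells, so these gates are not ordered beyond their counting error.

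The pooled ratio was thus lower than that of any gate, although the *Ccr2*+ interval holds it. Without cells with a UMI of another cell type the order turned, with 0.63 pooled and 0.53 in *Ccr2*+ cells. That alternative left out, among others, the 32.9% of CD and 32.3% of HFD cells with an endothelial UMI. That list of 5 genes was *Pecam1*, *Kdr*, *Flt1*, *Cdh5* and *Fabp4*, and 1 of them held 250 of 262 CPM in CD and 213 of 222 CPM in HFD. The paper reads *Fabp4* as a lipid gene in its ATM clusters, so a UMI of it need not mark another cell type. The gate highest in *Hspa1a*, *Lyve1*+, made up 49.6% of CD and 20.5% of HFD cells, shares that were not matched for depth. Cells were then split into combinations of gates that share no cell. In all 9 combinations with at least 100 *Hspa1a* UMIs the gene was higher in HFD, with the interval above 0 in 9 of 9 and log2 ratios from 0.90 in cells of no gate to 1.32 in *Lyve1*+*Ccr2*+ cells. Cells in the *Lyve1*+ gate alone, 662 in CD and 252 in HFD, stood at 591 and 1281 CPM, the highest level of these combinations in each library. Cells of the *Ccr2* and *Lyz1* gates alone, 151 and 412, stood at 150 and 320 CPM, the lowest. Weighted to the CD mix of gates, an alternative chosen after seeing the data, the ratio of *Hspa1a* over all kept cells was 1.14, that of *Hspa1b* 1.66, that of *Dnajb1* 0.09 and that of *Hspa8* 0.28.

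**Figure D2:**
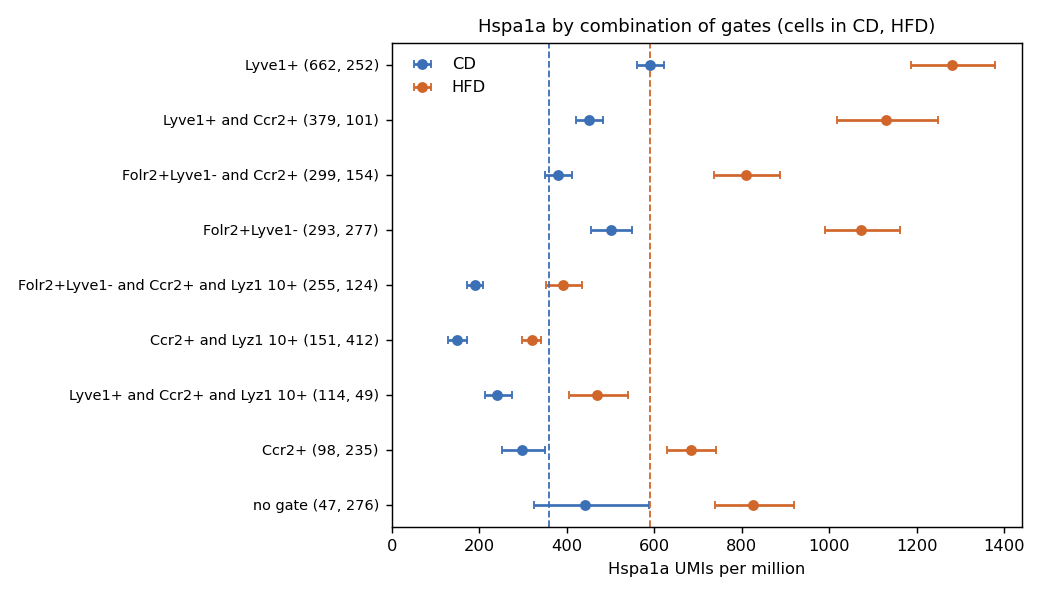
*Hspa1a* in UMIs per 1000000 (linear axis) in each combination of gates with at least 100 *Hspa1a* UMIs, with the number of CD and HFD cells in brackets; points are the CD (blue) and HFD (orange) library with exact Poisson 95% intervals, and dashed lines mark all kept cells (361 and 591). The HFD point lies to the right of the CD point in all 9 combinations.

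*Hspa1b* had the highest ratio of the 10 members in each of the 5 gates. It was at 50.6 CPM in CD and 170 CPM in HFD in *Lyve1*+ cells, a log2 ratio of 1.75 or 3.35-fold (2.80 to 4.01), and its ratio was 1.53 in *Folr2*+*Lyve1*-, 1.51 in *Ccr2*+ and 1.38 in *Lyz1* cells. In *Plac8*+ cells it rested on 5 CD and 32 HFD UMIs (2.14, 0.77 to 3.86). *Hspa1b* was thus at least 2-fold higher in all 5 gates and *Hspa1a* in 3 of them (*Lyve1*+, *Folr2*+*Lyve1*- and *Plac8*+). *Hsph1* also passed 2-fold in *Lyve1*+ cells, at 10.8 and 22.5 CPM (1.06, 0.38 to 1.71), from 58 and 31 UMIs. Its ratio was 0.30 in *Folr2*+*Lyve1*-, 0.30 in *Ccr2*+, 0.31 in *Lyz1* and 0.47 in *Plac8*+ cells. The *Hsph1* values of *Lyve1*+, *Folr2*+*Lyve1*- and *Plac8*+ cells and *Hspa1b* in *Plac8*+ cells rest on under 100 UMIs in the gate. With at least 100, the members at least 2-fold higher were *Hspa1a* and *Hspa1b* in *Lyve1*+ and *Folr2*+*Lyve1*- cells, *Hspa1b* in *Ccr2*+ and *Lyz1* cells, and *Hspa1a* in *Plac8*+ cells. The shares of all genes so far higher were 0.972%, 0.477%, 0.763%, 0.542% and 1.72% in *Lyve1*+, *Folr2*+*Lyve1*-, *Ccr2*+, *Lyz1* and *Plac8*+ cells. No member was at least 2-fold lower in any gate, where 1.68%, 1.19%, 2.12%, 1.1% and 1.72% of all genes were, in the same order.

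*Hsp90aa1* was higher in HFD by 0.50 (0.37 to 0.63) in *Lyve1*+ and 0.46 (0.33 to 0.58) in *Folr2*+*Lyve1*- cells, and by 0.15 (0.06 to 0.23) in *Ccr2*+ and 0.17 (0.06 to 0.28) in *Lyz1* cells, on the log2 scale. *Dnajb1* had ratios from -0.14 in *Lyve1*+ to 0.43 in *Plac8*+ cells, and the interval left out 0 only in *Folr2*+*Lyve1*- cells (0.22, 0.00 to 0.43). *Hspa8* had its highest ratio in *Lyve1*+ cells, 0.41 (0.34 to 0.47), from 1460 CPM in CD to 1934 CPM in HFD. Its ratio was 0.19, 0.16 and 0.16 in *Folr2*+*Lyve1*-, *Ccr2*+ and *Lyz1* cells and -0.02 (-0.19 to 0.14) in *Plac8*+ cells. *Dnaja1* ran from 0.20 to 0.49, *Hsp90ab1* from 0.03 to 0.35, *Hspd1* from 0.23 to 0.98 and *Hspe1* from 0.04 to 0.49 over the 5 gates. The highest values of *Hsp90ab1*, *Hspd1* and *Hspe1* were those of *Plac8*+ cells. *Hspd1* rested there on 13 CD and 37 HFD UMIs, under the minimum of 100, and its next highest ratio was 0.71 in *Lyve1*+ cells. The gates overlapped unequally: 37.5% of CD and 13.6% of HFD *Ccr2*+ cells were also *Lyve1*+, as were 22.2% and 8.04% of *Lyz1* cells. In *Ccr2*+ cells of no other gate, 98 in CD and 235 in HFD, *Hsp90aa1* was at 0.41 and *Dnajb1* at 0.64. *Hspd1*, *Hspe1*, *Hsp90ab1* and *Hsph1* were lower there, at -0.30, -0.10, -0.053 and -0.11. The part of this overlap in the gate ratios was not tested.

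The inducible sum exceeded the constitutive sum in its ratio in each gate, by 0.43 in *Lyve1*+, 0.65 in *Folr2*+*Lyve1*-, 0.34 in *Ccr2*+, 0.37 in *Lyz1* and 0.69 in *Plac8*+ cells. Without *Hspa1a* and *Hspa1b* these differences were 0.01, 0.22, -0.06, -0.01 and 0.12. *Lyve1*+ cells had a constitutive ratio of 0.35 (0.31 to 0.40) beside an inducible one of 0.79 (0.72 to 0.86), and the other 4 gates a constitutive ratio of 0.15 to 0.17.

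**Figure D3:**
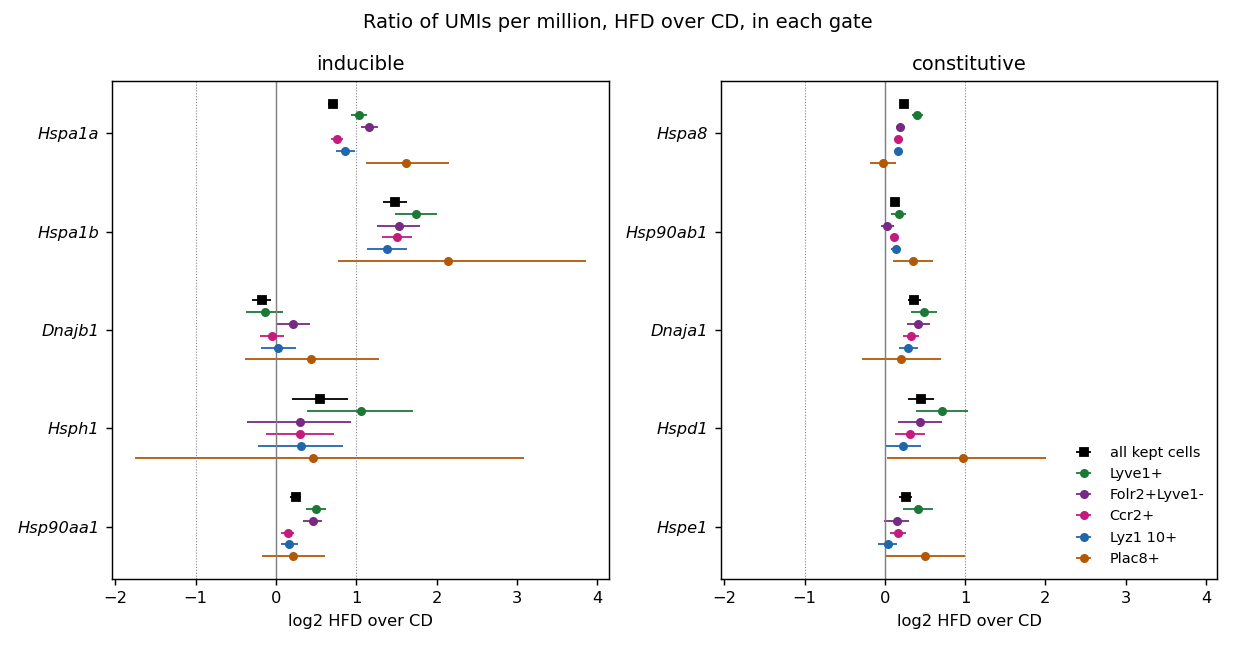
Log2 ratio of HFD over CD for each inducible (left) and constitutive (right) gene, in all kept cells (black squares) and in each gate (coloured circles), with exact conditional binomial 95% intervals; dotted lines mark 2-fold. *Hspa1b* has the highest ratio of the 10 genes in each gate and in all kept cells, all points of *Hspa1a* lie above 0, and their pooled ratios (0.71 and 1.48) are at or near the lower end of their gates.

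Within a library, *Lyve1*+ cells under 10 *Lyz1* UMIs were set against cells of at least 10 *Lyz1* UMIs without *Lyve1*, groups that share no cell (1049 and 432 in CD, 361 and 618 in HFD). *Hspa1a* was higher in the *Lyve1*+ cells, at 523 against 180 CPM in CD (log2 ratio 1.54, 1.41 to 1.67) and 1212 against 342 CPM in HFD (1.82, 1.71 to 1.94). *Dnajb1* was higher there as well, by 1.24 in CD and 1.15 in HFD, and so was *Hsp90aa1*, by 0.53 and 0.99. *Hspe1* ran the other way, with a ratio of -0.72 (-0.86 to -0.57) in CD and -0.25 (-0.47 to -0.03) in HFD, and *Hspa8* was at -0.01 in CD and 0.33 in HFD. The *Lyve1*+ cells had fewer UMIs and more mitochondrial UMIs than the *Lyz1* cells: the medians of the full gates were 4052.5 UMIs and 4.86% against 8205 UMIs and 2.57% in CD, and 2299 UMIs and 4.51% against 6609 UMIs and 2.12% in HFD.

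Both quantities moved with *Hspa1a*. In CD the level was 255 CPM in cells with under 2.5% mitochondrial UMIs, 388, 442 and 461 CPM in the next 3 bins up to 10%, and in HFD it was 458, 641, 946 and 1010 CPM in the same bins. HFD was above CD in each bin, with log2 ratios of 0.85, 0.72, 1.10 and 1.13, and *Hspa1b* had ratios from 1.40 to 1.86. The constitutive sum ran from 2919 CPM in the lowest to 2772 CPM in the highest of these bins in CD, and from 3245 to 3455 CPM in HFD. By genes per cell, *Hspa1a* in CD was at 606 CPM in cells with 500 to 1000 genes and at 195 CPM in cells with 2500 to 3500, and in HFD at 993 and 360 CPM. The HFD ratio was 0.69 to 0.89 in 4 of these 5 bins, 0.20 (0.08 to 0.31) in cells with 1500 to 2000 genes, and -0.12 (-0.73 to 0.56) in cells with 200 to 500 genes, where CD had 25 UMIs. Immediate early genes, 18 genes known to be switched on fast by signals or handling, were also higher with more mitochondrial UMIs, from 23697 CPM to 37977 CPM over the mitochondrial bins in CD and from 23918 to 46399 CPM in HFD. The part of cell stress during preparation in the level of *Hspa1a* was not tested. No cell type known to lack heat shock genes could be used here to read the level of free RNA.

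**Figure D4:**
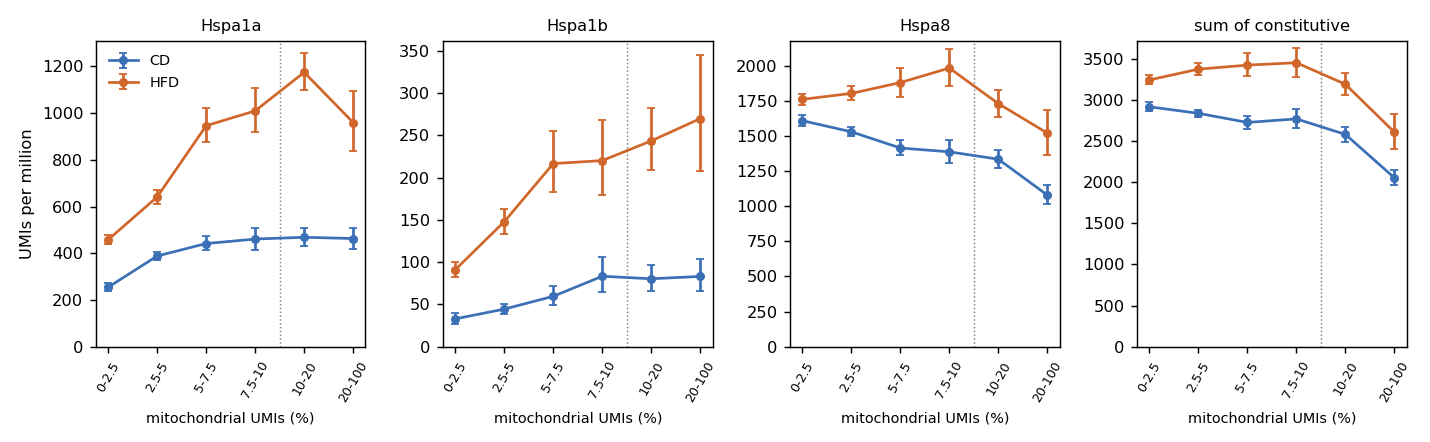
Level in UMIs per 1000000 of *Hspa1a*, *Hspa1b*, *Hspa8* and the constitutive sum in cells binned by their share of mitochondrial UMIs, for CD (blue) and HFD (orange), with exact Poisson 95% intervals; bins right of the dotted line were not among the kept cells. *Hspa1a* goes from 255 to 461 in CD and from 458 to 1010 in HFD across the kept bins, and the orange line is above the blue in each.

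The libraries differ in depth, so shares of positive cells were read after thinning each cell to 800 UMIs, which left out 30 CD and 147 HFD cells. *Hspa1a* was then found in 24.3% of CD and 34.4% of HFD cells, a difference of 10.1 percentage points (7.31 to 12.8), against 58.8% and 62.3% without thinning. *Hspa1b* was found in 4.54% and 10.7% of cells (16.6% and 29.1% unthinned). Among the gates the difference of *Hspa1a* was highest in *Lyve1*+ cells, 28.6% and 45.8%, or 17.1 points (11.6 to 22.6), although the interval overlaps those of the other 4 gates (15.7 points in *Folr2*+*Lyve1*-, 9.77 in *Ccr2*+, 10.0 in *Lyz1* and 14.4 in *Plac8*+ cells). *Hspa8* was found in 66.8% of CD and 73.9% of HFD cells (97.0% and 93.4% unthinned) and *Dnajb1* in 10.7% and 9.66% (39.0% and 27.9%).

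*Hspa1a* was unevenly spread over cells. Its variance after thinning was 1.70 times its mean in CD and 2.19 times in HFD, whereas that of *Hspa8* was 1.15 and 1.29 times. At least 5 UMIs of *Hspa1a* were found in 0.343% of CD and 1.60% of HFD cells. Among cells positive for *Hspa1a*, *Hspa1b* was found in 8.82% in CD and 17.1% in HFD, against 3.17% and 7.40% of the other cells. *Hsp90aa1* was found in 27.3% and 35.9% against 21.0% and 23.8%, and *Hspa8* in 68.1% and 75.3% against 66.4% and 73.2%. Across thinned cells (n = 2334 in CD and 1874 in HFD, which share their library), the highest Pearson r of any pair of members was that of the twins, 0.13 in CD and 0.21 in HFD. Over the 10 pairs of inducible genes the median r was 0.016 in CD and 0.058 in HFD, with the lowest pair at -0.00011 and -0.017. Over the 10 pairs of constitutive genes the median r was -0.00 in CD and 0.00 in HFD. These correlations are weak and are given as a description.

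Among 1132 genes of at least 100 CPM in both libraries, those nearest to *Hspa1a* across cells were *Apoe*, which carries lipids (r = 0.17 in CD and 0.20 in HFD), *Selenop*, a secreted selenium carrier (0.17 and 0.19), *C1qa* and *C1qc*, chains of complement C1q (0.16 and 0.15, and 0.14 and 0.16), and *Pf4*, a chemokine (0.14 and 0.19). These too are weak values. All 5 were lower in HFD over all kept cells, with log2 ratios from -1.08 (*Selenop*) to -0.31 (*Apoe*), opposite in sign to *Hspa1a*. The next gene in this order, *Malat1* (0.14 and 0.19), was higher in HFD, at 0.43. These ratios are not given by gate, and the shares of the gates differ between the libraries.

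Other genes of the chaperone network were read as lists, beside a median ratio of -0.01 over all genes. Of all genes, 1.06% were at least 2-fold higher and 2.48% at least 2-fold lower, and at those shares lists this short would hold few or no such genes. The intervals of the heat shock factors themselves included 0: *Hsf1* was at 9.44 CPM in CD and 9.65 CPM in HFD (log2 ratio 0.03, -0.40 to 0.46) and *Hsf2* at 13.1 and 13.5 CPM (0.04, -0.32 to 0.40). Of 20 other genes known as HSF1 targets, 17 had at least 100 UMIs, 6 of these had a ratio above 0 and 0 were at least 2-fold different, with a median of -0.05. Their range ran from -0.49 for *Dnajb4*, a J-domain gene, to 0.30 for *Tnfaip3*, a brake on NF-kB. The co-chaperone *Bag3* was at 26.0 and 23.5 CPM (-0.14, -0.41 to 0.12). *Dnajb4*, *Tnfaip3* and *Bag3* were named after their values were seen. By gate, 9 of 15 such targets were above 0 in *Lyve1*+ cells (median 0.02) and 9 of 15 in *Folr2*+*Lyve1*- cells (0.02). In *Ccr2*+ cells 4 of 15 were (-0.11), in *Lyz1* cells 7 of 15 (-0.01) and in *Plac8*+ cells 3 of 4 (0.11). The sum of all 20 had a log2 ratio of -0.03, 0.17, -0.06, 0.11 and -0.02 in these gates, and -0.08 over all kept cells. Of 20 cytosolic co-chaperones of HSP70 and HSP90, 19 had at least 100 UMIs over all kept cells, with a median of 0.05. *Fkbp5*, an HSP90 partner that is known to be induced by glucocorticoids, was the only one at least 2-fold higher, at 9.69 and 23.2 CPM (1.26, 0.92 to 1.61). The 7 other mitochondrial chaperones had a median of 0.15 and 13 subunits of the CCT chamber and prefoldin one of 0.07, with 0 genes of either list at 2-fold.

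The chaperones of the endoplasmic reticulum (ER), which are under a separate stress pathway, had a median of 0.40, and 13 of 14 had a ratio above 0. None was at 2-fold, where 1.06% of all genes were higher and 2.48% lower by as much. *Hspa5*, the HSP70 of the ER, was at 431 CPM in CD and 518 CPM in HFD (0.27, 0.21 to 0.33). The 18 immediate early genes had a median of -0.00, with 9 above 0, and their sum was 28314 CPM in CD and 28765 CPM in HFD. By gate, 13 of 18 were above 0 in *Lyve1*+ cells (median 0.10), 16 of 18 in *Folr2*+*Lyve1*- (0.19), 9 of 18 in *Ccr2*+ (0.00074), 12 of 18 in *Lyz1* (0.090) and 12 of 17 in *Plac8*+ cells (0.22). *Plac8*+ and *Folr2*+*Lyve1*- cells, which had the highest *Hspa1a* ratios of the gates, also had the highest ratios of the summed immediate early genes, 0.23 (0.18 to 0.28) and 0.21 (0.20 to 0.22), and the part of this in the *Hspa1a* ratios was not tested. Genes of lipid handling that the study examined had ratios over all kept cells of 0.02 for the exporter *Abca1* and 0.33 for the lipid receptor *Cd36*, with 0.43 for the noncoding RNA *Malat1*, and 0.87 for the LXR gene *Nr1h3* from 50 and 60 UMIs. By gate, *Abca1* was at 0.47 (0.29 to 0.65) in *Lyve1*+, 0.84 (0.63 to 1.05) in *Folr2*+*Lyve1*-, -0.17 (-0.35 to 0.01) in *Ccr2*+ and 0.04 (-0.25 to 0.34) in *Lyz1* cells. *Cd36* was at 0.54, 0.98, 0.29 and 0.66 in the same gates and *Malat1* at 0.57, 0.73, 0.41 and 0.40.

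**Figure D5:**
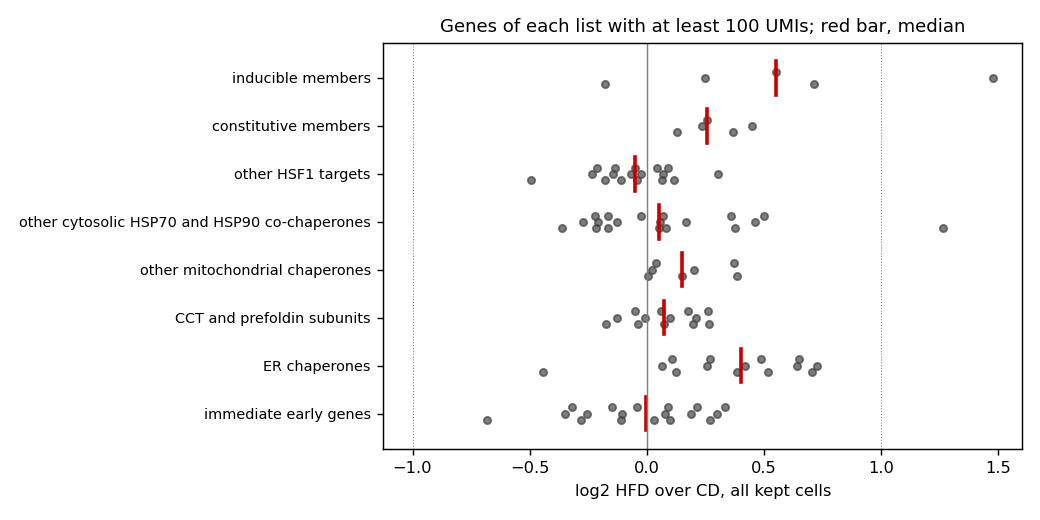
Log2 ratio of HFD over CD in all kept cells for each gene with at least 100 UMIs in 8 lists (points), with the list median (red bar); dotted lines mark 2-fold. The inducible members spread from -0.18 to 1.48, and the other HSF1 targets lie around a median of -0.05.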

How the data were processed

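Droplet-based scRNA-seq (10x 3′ chemistry, version 2) was made from ATMs pooled from 3 mice per diet, and the authors deposited raw counts of UMIs per gene and barcode from Cell Ranger 3.0.2 on mm10, not normalized. The whole numbers were read with pandas 2.3.3 and scipy 1.17.1 under Python 3.11.15 (numpy 2.4.6, figures by matplotlib 3.10.9). Cells with 200 to 3500 genes and at most 10% mt- UMIs were kept, doublets included. Free RNA was not corrected, and Scrublet's own threshold called 0 and 2 barcodes, so an alternative left out the barcodes with the highest scores.

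The 10 members, their classes and the other lists were chosen with earlier results of these data known. With 1 library per diet there is no test between diets. UMIs were summed over cells and divided by all UMIs of those cells (CPM). Levels carry exact Poisson and ratios exact conditional binomial intervals at 95%. Differences between shares of cells carry Newcombe intervals from Wilson limits, and the difference between classes a normal approximation on the log scale. A gene counted as higher or lower at a 2-fold ratio with at least 100 UMIs in both libraries together. The depth of 12284010 and 8086475 UMIs sets these intervals. Named genes were the 10 members, list genes at 2-fold, and the 5 genes with the highest r to *Hspa1a* in the library where r was lower. The alternatives used scanpy 1.11.5 for Scrublet and edgeR 4.0.16 in R 4.3.3 for TMM factors. The intervals were tested on simulated Poisson counts, the model they assume. That check cannot show how they fit counts that vary more between cells, as those of *Hspa1a* did. Thinning was also tested on simulated counts. Gene positions are from GENCODE M21. 1 gene of the CCT and prefoldin list was not analysed here. Part of the sort description and 1 marker list are not reported here.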

Additional observations from a re-analysis of the deposited data

Results flagged for a closer look

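Some members stood on opposite sides of the other kept cells in the 2 libraries, and with 1 library per diet the difference was not tested. In *Folr2*+*Lyve1*- cells against all other kept cells of the same library, *Hspa1a* had a log2 ratio of -0.38 in CD and 0.30 in HFD, *Dnajb1* one of -0.26 and 0.33, the inducible sum one of -0.28 and 0.20 and the constitutive sum one of 0.037 and -0.041. In *Lyve1*+ cells against the others, *Hspa8* was at -0.11 in CD and 0.13 in HFD and the constitutive sum at -0.097 and 0.091. In *Ccr2*+ cells the constitutive sum was at 0.057 in CD and -0.17 in HFD. The cells outside a gate are not the same mix in the 2 libraries.

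The barcodes left out for their mitochondrial share also held these genes. Members were flagged where HFD was at least 2-fold above CD with the interval above 0. With 10 to 20% mitochondrial UMIs, the log2 ratio of HFD over CD was 1.33 for *Hspa1a*, 1.60 for *Hspa1b* and 1.24 for *Hsph1*. The members not flagged there ran from 0.03 (*Hsp90ab1*) to 0.67 (*Dnaja1*). Above 20%, the ratio was 1.05 for *Hspa1a*, 1.70 for *Hspa1b* and 1.25 for *Hsp90aa1*. The members not flagged there ran from -0.41 (*Dnajb1*) to 0.49 (*Hspa8*).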

How the results depend on the processing

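No paired analysis was possible because each diet is 1 library of pooled mice. The ratio of *Hspa1a* stayed above 0 in all 80 values of the alternatives (0.53 to 2.11), which include ratios of *Hspa1a* and *Hspa1b* summed. That of *Hspa1b* stayed above 0 in all 74 (0.79 to 3.18), and *Dnaja1* and *Hsp90aa1* also kept their sign. *Dnajb1* changed sign in 10 of 74, *Hspe1* in 7, *Hsp90ab1* and *Hsph1* in 4 each, *Hspa8* in 3 and *Hspd1* in 1. Of the class differences, 51 of 80 stayed within their counting interval. For those that did not, the cause was not tested. With at least 1000 genes per cell the class difference was 0.20 over all kept and 0.55 in *Folr2*+*Lyve1*- cells. With UMIs thinned to 800 per cell it was 0.38 over all kept and 0.49 in *Lyz1* cells, and with a mean of CPM per cell 0.42 over all kept, 0.43 in *Ccr2*+ and 0.46 in *Lyz1* cells. In *Ccr2*+ cells it was 0.79 in cells of 1 gate only and 0.46 with gates read after thinning. Without cells with a UMI of another cell type it was 0.22 in *Ccr2*+ and 0.27 in *Lyz1* cells. Without *Hsp90aa1* and *Dnaja1* it was 0.43 over all kept, then 0.58, 0.87, 0.55, 0.63 and 1.23 in *Lyve1*+, *Folr2*+*Lyve1*-, *Ccr2*+, *Lyz1* and *Plac8*+ cells. As a median of members it was 0.62, 0.26, 0.14, 0.14 and 0.12 in those 5 gates. These medians include members under 100 UMIs, and in *Plac8*+ cells the inducible median was the ratio of *Hsph1*, from 3 CD and 6 HFD UMIs. With at least 100 UMIs the inducible median was 0.77 in *Lyve1*+ cells in place of 1.04. It was then 0.81 in *Folr2*+*Lyve1*- cells in place of 0.46, and 0.92 in *Plac8*+ cells in place of 0.47. The 2 alternatives chosen after seeing the data gave -0.070 over all kept and 0.0057, 0.22, -0.060, -0.0100 and 0.12 in the gates without *Hspa1a* and *Hspa1b*, and 0.59 over all kept cells with HFD weighted to the CD mix of gates. Between *Lyve1*+ cells under 10 *Lyz1* UMIs and *Lyz1* cells without *Lyve1*, the inducible log2 ratio in HFD was 1.48 at no more than 5% mitochondrial UMIs, 1.22 after thinning, 1.20 in cells of 1 gate only and 1.48 without cells with a UMI of another cell type, and in CD 1.65 in cells of 1 gate only. The constitutive one was -0.16 in CD after thinning, and in HFD 0.053 in cells of 1 gate only and 0.27 with gates read after thinning. Gates read after thinning took *Lyz1* at 2 UMIs in place of 10, so they hold other cells. Genes at least 2-fold higher and lower numbered 689 and 1066 with at least 1 UMI in each library, and 36 and 67 with at least 500 UMIs. Each cutoff changes the number of genes read, so these counts are not like those over the 8708 genes, which were 92 and 216. Settings that left fewer than 20 cells of a gate in a library gave no value for that gate. The comparison of *Lyve1*+ with *Lyz1* cells had no such minimum. Its values in cells of 1 gate only rest on 8 *Lyz1* cells in CD and 55 in HFD.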
